A study of Mus musculus with 8 samples.

Results

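The Toll-like receptor genes Tlr1, Tlr2, Tlr3, Tlr4, Tlr6, Tlr7 and Tlr9 were followed across 4 groups of mouse spleen B cells, together with Cd180, its partner Ly86 and the receptor chaperone Unc93b1. These 10 genes were chosen by symbol, with earlier results of these data known. Their counts beside the shares of all genes are therefore descriptive. Each had 1 probe set that named it alone, so all 10 were measured among 21515 genes. RNA was measured on 8 Affymetrix whole-transcript arrays, with 2 arrays in each group, and the replicates are labelled biological. LMP1 cells came from LMP1flSTOP/YFPflSTOP mice and YFP control cells from YFPflSTOP/+ mice, both female and of a (C57BL6XBALBc) F1 background. In these mice a stop cassette precedes the transgene, and both groups were given the cell-permeable recombinase TAT-Cre and sorted 2 days later for YFP, so that the reporter and not LMP1 itself defined the cells. LMP1 is the latent membrane protein of Epstein-Barr virus, which signals without a ligand through adaptors that CD40 also uses. The naive control and the CD40-activated groups used male mice of strain B6/J, for which no transgene is listed. Naive cells went straight from isolation to RNA, and activated cells were kept with anti-CD40 for 2 days. All cells had been isolated by depleting CD43-bearing spleen cells, and the ages of the mice are not given in the sources used here.

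Toll-like receptors recognise conserved microbial molecules and, for those in endosomes, nucleic acids. B cells carry them beside the antigen receptor, and their ligands can drive B cells to divide and to secrete antibody. TLR1, TLR2, TLR4 and TLR6 signal from the cell surface, while TLR3, TLR7 and TLR9 need the membrane protein UNC93B1 to leave the endoplasmic reticulum for endosomes. CD180, also named RP105, resembles TLR4 outside the cell, lacks its signalling domain and reaches the B cell surface with the small protein that Ly86 encodes.

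Values are log2 expression levels normalized by the authors, so a difference of 1 is a factor of 2. A gene passed the test where its adjusted p in limma (Benjamini-Hochberg over all genes) was under 0.05. Beside a level the error is the SD over 2 arrays. Beside a log2 change it is the model's standard error, which pools the spread within all 4 groups. The 6 measured B cell markers were above the array median in every group, with list means of 10.57 to 11.82 per array. Replicates correlated across genes with r between 0.975 and 0.996, lowest for YFP control, whose arrays were more than 1 log2 apart at 950 genes. Markers of T cells were higher in naive cells, with list means of 8.54 and 8.81 over 8 genes against 5.64 to 6.21 on the other 6 arrays. Those of NK cells, at 6.54 and 7.17 over 5 genes against 4.54 to 5.24, and of erythroid cells and platelets, at 6.62 and 7.22 over 3 genes against 4.92 to 5.44, were also higher there. In these bulk samples fewer cells of a type and less RNA per cell cannot be told apart.

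Tlr7, Tlr9, Cd180, Ly86 and Tlr4 were lower in LMP1 cells than in YFP control and higher in CD40-activated than in naive cells. The 250 bases before the start site of Tlr9, Cd180 and Ly86 are shown. These members changed in those directions and have an entry in the promoter table used here (RefSeq, GRCm38.p6). Ly86 did not follow the others throughout. Between LMP1 and CD40-activated cells it was at -0.10, where Tlr9 was at -2.12 and Cd180 at -2.09. Capitals mark an octamer in Tlr9, the motif that B cell octamer factors recognise, and a match to a loose NF-kB pattern in Ly86.
Tlr9 (GRCm38.p6, chr9:106222348-106222597, + strand): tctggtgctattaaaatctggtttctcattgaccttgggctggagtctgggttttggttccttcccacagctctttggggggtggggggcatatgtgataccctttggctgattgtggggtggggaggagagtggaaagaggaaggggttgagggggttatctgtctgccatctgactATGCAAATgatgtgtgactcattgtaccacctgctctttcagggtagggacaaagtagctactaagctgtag
Cd180 (GRCm38.p6, chr13:102693297-102693546, + strand): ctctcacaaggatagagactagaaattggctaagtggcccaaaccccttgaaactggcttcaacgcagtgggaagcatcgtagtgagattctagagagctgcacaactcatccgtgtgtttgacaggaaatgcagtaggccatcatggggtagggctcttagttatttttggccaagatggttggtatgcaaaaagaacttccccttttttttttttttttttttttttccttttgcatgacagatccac
Ly86 (GRCm38.p6, chr13:37345095-37345344, + strand): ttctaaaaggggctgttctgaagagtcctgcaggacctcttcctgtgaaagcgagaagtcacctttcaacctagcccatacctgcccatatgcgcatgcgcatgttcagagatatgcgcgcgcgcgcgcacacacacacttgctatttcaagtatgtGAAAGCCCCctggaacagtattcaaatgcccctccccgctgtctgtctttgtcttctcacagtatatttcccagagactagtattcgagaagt
Windows of 300 bases (250 before and 50 after the start) were searched on both strands for 5 motifs, with an entry for 7 of the 10 members in 10 windows. The octamer ATGCAAAT was found in Tlr9, 72 bases before its start, and in 1.74% of 32851 windows of all genes. The PU.1 motif GAGGAAGT was found in Tlr1, 23 bases before the start, in Tlr9 beginning at base 11 after it, and in 3.20% of windows. The NF-kB pattern GGGNNTTTC was found in Tlr3 and, 93 bases before the start, in Ly86 (4.36% of windows). The IRF pattern GAAANNGAA was found in 1 window of Tlr6, as 2 overlapping matches, and in Ly86 from base 1 after the start (8.56% of windows). The composite ETS and IRF pattern GGAANNGAA (8.24%) was found in 0 of the 10 windows. Each motif was counted on its own, so matches of different motifs can overlap. A match describes these letters and was not tested for binding.

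The comparison of LMP1 cells with YFP control asks what LMP1 does to these genes where strain, sex, recombinase and sort are shared. Of the 10 members 7 fell and 0 rose, where 8.31% of all genes fell and 14.9% rose. Over all genes 1787 fell and 3208 rose, or 2282 and 2480 after quantile normalization done separately per array set, under which 6 members fell and 0 rose. Tlr7 and Tlr9, the sensors of RNA and of unmethylated CpG DNA in endosomes, fell by 2.80 ± 0.34 and by 2.12 ± 0.17. Tlr3 (-1.87), Cd180 (-1.44), Tlr4 (-1.21), Tlr1 (-0.79) and Ly86 (-0.67) also fell, and Tlr2, Tlr6 and Unc93b1 did not pass. The median change over the members was -1.0, beside -0.07 over all genes.

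LMP1 cells had Tlr7 levels of 7.43 and 7.24, and YFP control cells 9.54 and 10.74. Both LMP1 arrays were below both YFP controls, and the controls differed by more than the LMP1 arrays did. The difference was 6.99-fold (adjusted p = 0.000319). It was -2.20 without YFP control 2 and -3.41 without YFP control 1, and it passed under each of 16 alternative settings. Tlr9 was at 8.39 and 8.44 in LMP1 cells and at 10.43 and 10.65 in YFP control. The groups lay far apart beside the spread within each, and the change was 4.36-fold (adjusted p = 3.41e-05).

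Tlr3, whose product recognises double-stranded RNA, was at 3.80 and 4.11 in LMP1 cells and at 5.36 and 6.29 in YFP control. The groups did not overlap (adjusted p = 0.00105), but Tlr3 was below the array median on 7 of the 8 arrays, all but YFP control 2, so its values lie in the dim range. Unc93b1 was at 10.03 and 10.11 in LMP1 cells and at 11.44 and 10.11 in YFP control. YFP control 2 equalled the higher LMP1 array, and the change of -0.71 ± 0.34 missed the threshold (adjusted p = 0.179). With YFP control 2 left out it was -1.37 and passed (adjusted p = 0.000863), and over all 16 alternatives the change ranged from -1.37 to -0.04 and the adjusted p from 0.000863 to 0.877.

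Cd180, which has been described both as a brake on TLR4 and as an activating receptor of B cells, was at 9.55 and 9.59 in LMP1 cells and at 10.94 and 11.09 in YFP control. The arrays of each group lay close together, and the change was -1.44 ± 0.17 (adjusted p = 0.000231). Ly86 was at 11.33 and 11.31 in LMP1 cells and at 11.67 and 12.30 in YFP control. Its fall by 0.67 ± 0.21 was the smallest that passed (adjusted p = 0.0482) and missed the threshold under 11 of 16 alternatives, with adjusted p from 0.00281 to 0.2. Without YFP control 2 the change of Ly86 was -0.35.

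Among the other surface receptors Tlr4, which senses lipopolysaccharide, was at 5.28 and 4.94 in LMP1 cells and at 6.22 and 6.43 in YFP control. Both LMP1 arrays were below their array medians and both controls above theirs, and the change was -1.21 ± 0.18 (adjusted p = 0.000979). Tlr1, a partner of TLR2 in sensing lipopeptides, was at 9.43 and 9.48 in LMP1 cells and at 10.44 and 10.06 in YFP control (change -0.79 ± 0.18, adjusted p = 0.00984). The groups did not overlap, but the call of Tlr1 was lost without LMP1 array 1 (adjusted p = 0.0875) or without LMP1 array 2 (adjusted p = 0.0672). Tlr6, the alternative partner of TLR2, lies next to Tlr1 in the gene order with no protein-coding gene between them. It was at 7.89 and 7.71 in LMP1 cells and at 8.01 and 8.57 in YFP control, which did not pass (-0.49 ± 0.29, adjusted p = 0.272). Tlr2 itself was at 6.75 and 6.88 against 6.57 and 6.42, and its change of 0.32 (95% interval -0.11 to 0.75) did not pass either. In all, the arrays of the groups did not overlap for 9 of the 10 members, as they did not for 61.2% of all genes.

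**Figure D1:**
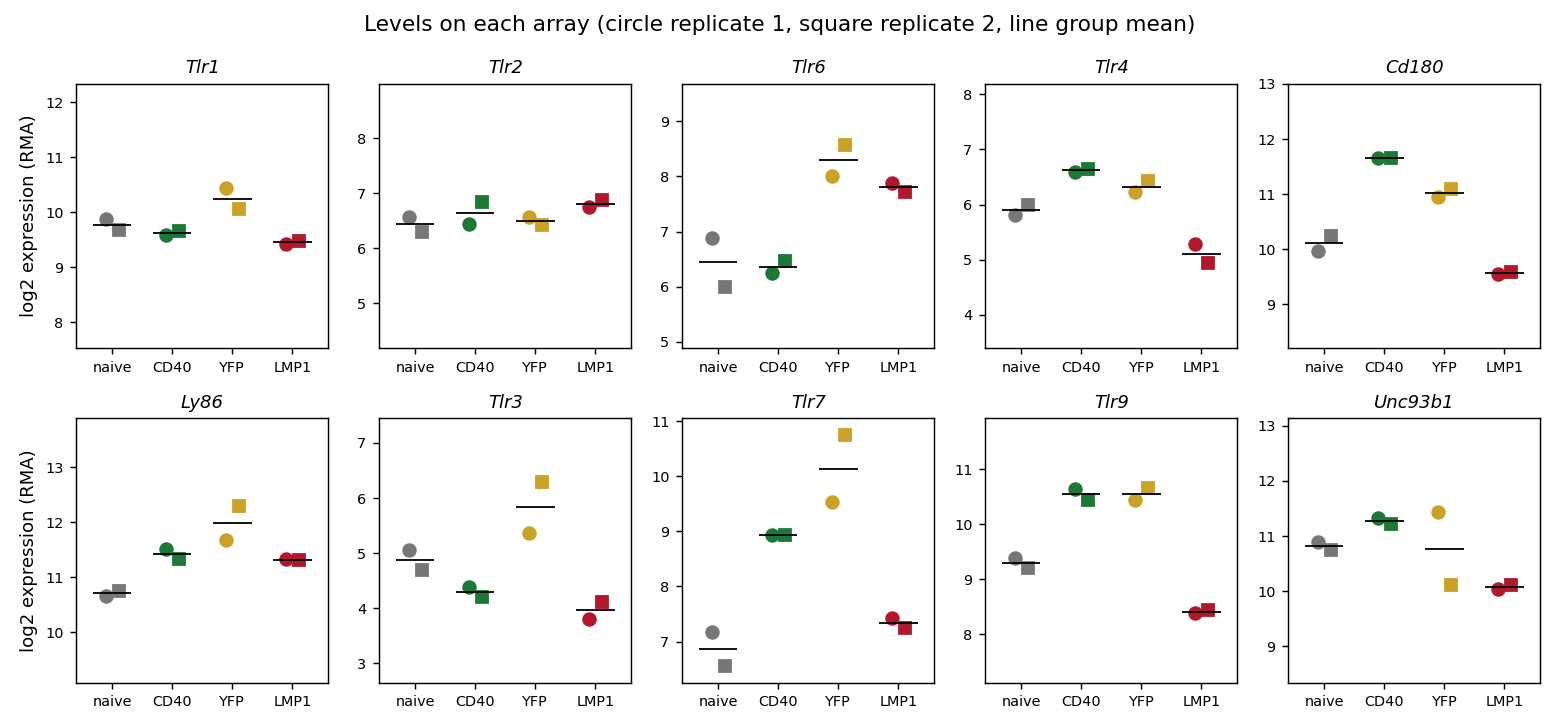
Log2 expression of each member (1 panel each) on the 8 arrays, by group; circles are replicate 1, squares replicate 2 and lines the mean of 2 arrays. Every panel spans the same range of log2 units around its own middle, so distances can be compared between panels and levels cannot. Tlr7, Tlr9 and Cd180 show low LMP1 and high CD40-activated and YFP control arrays, and Tlr6 separates LMP1 and YFP control from the other groups.

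Other markers moved in the same comparison. Of 6 B cell markers 4 fell, of 6 marginal zone B cell markers 3 fell, and of 8 T cell markers 2 fell. Of 11 monocyte and macrophage markers 3 fell, Adgre1 4.06-fold, Lyz2 3.75-fold and Ms4a7 2.95-fold. Of 6 dendritic cell markers 2 rose, Flt3 7.97-fold and Zbtb46 3.45-fold, and of 6 B1 cell markers 2 rose and 1 fell. The dendritic cell list had means of 6.30 and 6.49 in LMP1 cells and 5.27 and 5.47 in YFP control. The monocyte list had means of 5.16 and 5.24 in LMP1 cells and 5.58 and 6.04 in YFP control, and 8 and 7 of its 11 genes were below the array median. The plasmacytoid dendritic cell list, a cell type known for high Tlr7 and Tlr9, had means of 5.73 to 5.85 against 5.78 to 5.91. Of its 6 genes 1 was lower, Tcf4 (-0.70, adjusted p = 0.0425 in limma's test). In the same test 4 of the 6 had an unadjusted p under 0.05. These were Tcf4, Ccr9 (-0.59) and Siglech (-0.41), which were lower, and Bst2 (0.74), which was higher. The part of these markers in the members' changes was not tested.

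The comparison of CD40-activated with naive cells asks how engaging CD40 acts on these genes, and it holds 2 days of culture as well as the antibody. Of the 10 members 5 rose and 0 fell, where 11.0% of all genes rose and 6.65% fell. Over all genes 2373 rose and 1430 fell, or 1751 and 1579 after that normalization (4 members up, 0 down) and 2808 and 973 with array medians subtracted (5 up, 0 down). Tlr7 rose by 2.06 ± 0.34, Cd180 by 1.55 ± 0.17, Tlr9 by 1.25 ± 0.17, Tlr4 by 0.72 ± 0.18 and Ly86 by 0.71 ± 0.21. The median over the members was 0.58, beside -0.05 over all genes. Tlr1, Tlr2, Tlr3, Tlr6 and Unc93b1 did not pass.

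Tlr7 was at 8.93 on both CD40-activated arrays and at 7.17 and 6.56 on the naive arrays (adjusted p = 0.00279). Cd180 was at 11.66 on both CD40-activated arrays and at 9.97 and 10.24 on the naive arrays, a 2.94-fold difference (adjusted p = 0.00028). For both genes the activated arrays were equal to the second decimal, and the naive arrays varied more. Tlr9 was at 10.63 and 10.44 in activated cells and at 9.38 and 9.20 in naive cells (adjusted p = 0.00101). These 3 passed under every one of the 16 alternatives.

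Tlr4 was at 6.59 and 6.65 in activated cells and at 5.81 and 5.99 in naive cells (adjusted p = 0.0225), and Ly86 at 11.51 and 11.34 against 10.67 and 10.76 (adjusted p = 0.0456). Neither pair of groups overlapped, but Tlr4 missed the threshold under 3 of 16 alternatives (adjusted p from 0.0118 to 0.144) and Ly86 under 8 (0.00634 to 0.237). The count of members that rose was 3 without naive control 1, without CD40-activated 1 or without CD40-activated 2, and Tlr4 and Ly86 were the members lost.

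The other members did not pass with all 8 arrays in the fit. Tlr1 was at 9.59 and 9.66 in activated and 9.87 and 9.68 in naive cells, a change of -0.15 with a 95% interval from -0.55 to 0.25. Unc93b1 was at 11.32 and 11.22 against 10.89 and 10.74 (0.46 ± 0.34, adjusted p = 0.412). Its activated arrays were above both naive arrays, although the interval, from -0.31 to 1.22, included 0. That interval pools the spread within all 4 groups. The SD of Unc93b1 was 0.94 in YFP control, which is outside this comparison, 0.07 in activated and 0.11 in naive cells. Tlr3 was at 4.38 and 4.21 against 5.05 and 4.70 (-0.58 with a 95% interval from -1.21 to 0.05, adjusted p = 0.202), below the array median throughout and with no overlap. Leaving either YFP control array out of the fit kept both changes and brought them past the threshold, Unc93b1 as higher (adjusted p = 0.0392) and Tlr3 as lower (adjusted p = 0.0455), so that 6 members rose and 1 fell. Tlr2, at 6.44 and 6.84 against 6.57 and 6.30, and Tlr6, at 6.24 and 6.46 against 6.88 and 6.00, overlapped between the groups. In all 8 of the 10 members did not overlap, beside 59.6% of all genes in this comparison.

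The naive arrays carried more of other cells' transcripts: 8 of 8 T cell markers and 3 of 5 NK cell markers were lower in CD40-activated cells. B cell markers had means of 11.36 and 11.43 in activated and 11.28 on both arrays of naive cells, with 1 of 6 higher. Of the marginal zone markers 2 rose, S1pr3 by 3.71 and Myof by 2.32, and 1 fell, Dtx1 (-1.06). Among the 3 follicular B cell markers 0 rose and 1 fell, Cd55 (-2.41). Of the plasmacytoid dendritic cell markers 2 rose, Ccr9 by 1.26 and Tcf4 by 0.72, and 1 fell, Bst2 (-0.96). The plasmacytoid list had means of 5.82 and 6.00 in activated and 5.83 and 5.88 in naive cells. Of the monocyte and macrophage markers 2 rose, Ms4a7 by 3.41 and Cd68 by 2.20, and 3 fell, Lyz2 (-2.27), Itgam (-1.86) and Ccr2 (-1.29). Among B1 markers 2 rose and 3 fell, and among dendritic cell markers 1 rose and 1 fell. Their part in the members' changes was not tested.

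**Figure D2:**
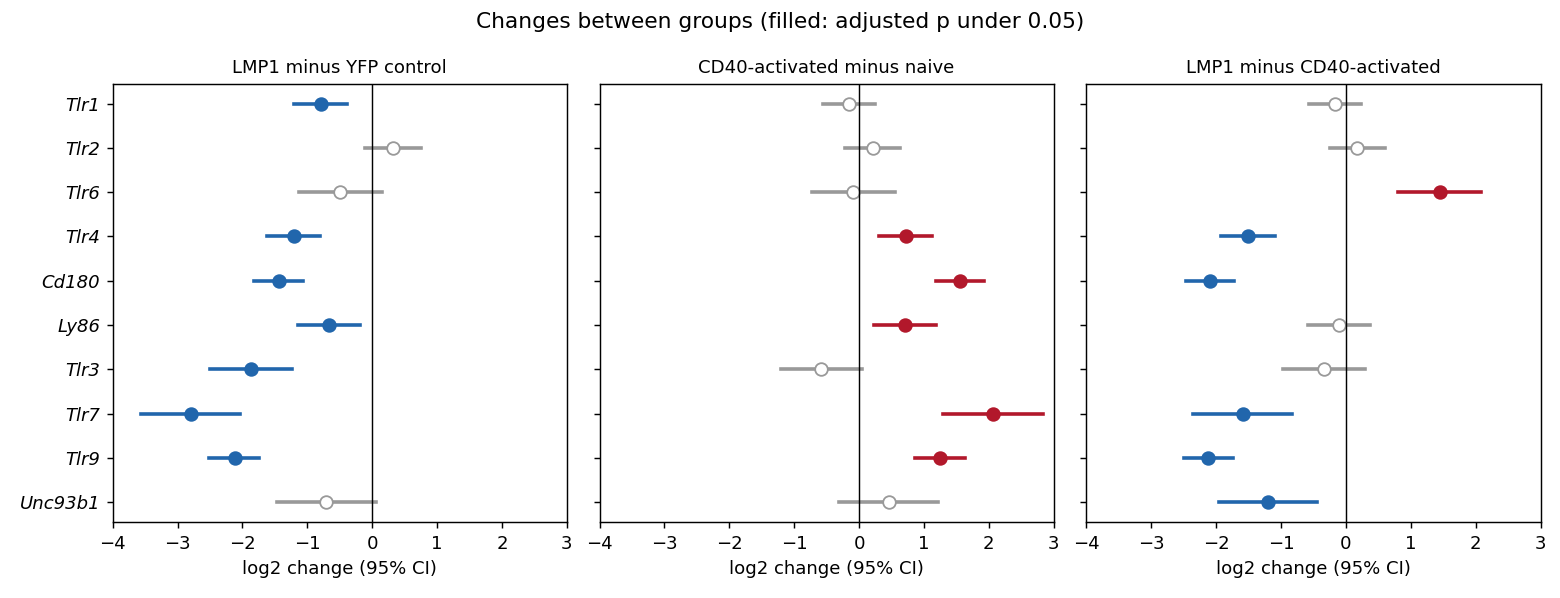
Log2 change of each member with its 95% confidence interval from the model, in 3 comparisons of 2 arrays against 2. Blue is lower, red is higher, and open grey symbols did not pass at an adjusted p of 0.05. With LMP1 7 members are lower and with CD40 activation 5 are higher. In the direct comparison 5 are lower in LMP1 cells and Tlr6 is higher.

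YFP control cells, which spent 2 days in culture without the antibody, were set against naive cells to show what separates the controls. Strain, sex, TAT-Cre, the sort and the set of arrays differed as well and cannot be told apart from culture. Only the YFP control and LMP1 arrays are labelled re-analysed. Of the 10 members 6 were higher and 0 lower in YFP control, where 10.9% of all genes were higher and 7.59% lower. The arrays did not overlap for 8 of the 10, beside 52.8% of all genes. Tlr7 differed most, by 3.27 ± 0.34 (adjusted p = 0.000309), followed by Tlr6 (1.85 ± 0.29), Ly86 (1.27 ± 0.21), Tlr9 (1.25 ± 0.17), Tlr3 (0.95 ± 0.28) and Cd180 (0.91 ± 0.17). Tlr3 was close to the threshold (adjusted p = 0.0435) and missed it under 9 of 16 alternatives (0.00283 to 0.193). Cd180 missed it with only the groups compared (adjusted p = 0.0554), where 4 members were called, and Tlr1 passed without YFP control 2 (0.67, adjusted p = 0.0303). The naive arrays belong to both this comparison and the CD40 comparison, so their changes are given only side by side. For Tlr9 they were 1.25 with CD40 activation and 1.25 in YFP control, for Tlr7 2.06 and 3.27, and for Cd180 1.55 and 0.91. Unc93b1 was at -0.04 here, at 0.62 without YFP control 2 (adjusted p = 0.0362) and at -0.71 without YFP control 1. Its call thus turned on which YFP control array was kept, with adjusted p from 0.0157 to 0.995 over 16 alternatives. Of the T cell markers 8 of 8 and of the NK cell markers 4 of 5 were lower in YFP control, while of the 11 monocyte and macrophage markers 3 were higher and 2 lower. Among the 3 follicular B cell markers 2 were lower and 0 higher in YFP control. Their part in these differences was not tested.

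The order of the 4 groups differed between members. For Tlr7 the order from high to low was YFP control (10.14 ± 0.85), CD40-activated (8.93), LMP1 (7.33 ± 0.13) and naive control (6.87 ± 0.43), and the lowest LMP1 array was 0.07 above the highest naive array. That gap was smaller than the spread within either of these groups. For Tlr9 YFP control (10.54 ± 0.16) and CD40-activated cells (10.54 ± 0.13) overlapped, naive cells were at 9.29 ± 0.13 and LMP1 cells, at 8.41 ± 0.04, were below all others. Cd180 ran from CD40-activated (11.66) through YFP control (11.02 ± 0.11) and naive control (10.11 ± 0.19) to LMP1 (9.57 ± 0.03), with no neighbours overlapping. Tlr4 had the same order, at 6.62, 6.32, 5.90 and 5.11.

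Ly86 was highest in YFP control (11.98 ± 0.45), with CD40-activated (11.43 ± 0.12) and LMP1 (11.32 ± 0.01) 0.01 apart at their nearest arrays and naive cells lowest (10.71 ± 0.06). Tlr3 ran from YFP control (5.83 ± 0.66) through naive control (4.88 ± 0.25) and CD40-activated (4.29 ± 0.12) to LMP1 (3.96 ± 0.22). Tlr1 ran from YFP control (10.25 ± 0.27) through naive control (9.77 ± 0.13) and CD40-activated (9.62 ± 0.05) to LMP1 (9.46 ± 0.04), where naive and CD40-activated arrays came within 0.02 of each other. For Tlr2 all neighbours overlapped, between 6.44 and 6.81. Unc93b1 was at 11.27 ± 0.07 in CD40-activated, 10.82 ± 0.11 in naive, 10.77 ± 0.94 in YFP control and 10.07 ± 0.06 in LMP1 cells, and the wide YFP control overlapped naive control and touched LMP1.

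LMP1 cells were compared directly with CD40-activated cells. However, strain, sex, TAT-Cre, the sort and the set of arrays go along with this contrast and cannot be told apart from it. Of the 10 members 5 were lower and 1 was higher in LMP1 cells, where 5.17% of all genes were lower and 9.66% higher. Tlr9 was lower by 4.35-fold (log2 change -2.12 ± 0.17, adjusted p = 5.84e-05), Cd180 by 4.26-fold (-2.09 ± 0.17, adjusted p = 5.77e-05) and Tlr7 by 3.02-fold (-1.59 ± 0.34, adjusted p = 0.0115). Tlr4 (-1.51) and Unc93b1 (-1.20) were lower too. The arrays did not overlap for 9 of the 10, beside 62.7% of all genes. Tlr9, Cd180 and Tlr4 passed under all 16 alternatives. Tlr7 missed the threshold when any of the 4 arrays compared was left out (adjusted p up to 0.0922), and Unc93b1 (adjusted p = 0.0413) missed it under 7 alternatives (0.000135 to 0.205). The count was 3 without LMP1 array 1, without CD40-activated 1 or without CD40-activated 2. Ly86, the partner of Cd180, was at -0.10 with a 95% interval from -0.58 to 0.37, so its level was not shown to differ while that of Cd180 did. In the same comparison 4 of 6 B cell, 4 of 6 marginal zone, 2 of 3 follicular B cell and 3 of 6 plasmacytoid dendritic cell markers were lower in LMP1 cells. Higher there were 1 plasmacytoid marker and 3 of 6 dendritic cell markers. The part of these markers was not tested.

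Tlr6 was the 1 member that was higher in LMP1 than in CD40-activated cells, by 1.45 ± 0.29 (adjusted p = 0.00771; missed under 3 of 16 alternatives, with adjusted p up to 0.0795). It was at 7.71 to 8.57 on the 4 arrays of LMP1 and YFP control and at 6.00 to 6.88 on the 4 arrays of CD40-activated and naive cells. All arrays of the female F1 mice were thus above all arrays of the male B6/J mice, as for 6.01% of all genes, and Tlr6 was not called within either set. This pattern of Tlr6 was noticed after its values were seen, and strain, sex, TAT-Cre, sort and the set of arrays cannot be told apart in it. Tlr7 is X-linked in mice, and it was called both within the female pair of groups and within the male pair. The part of sex in its differences between the female and male groups was not tested.

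The response to LMP1 minus the response to CD40 activation was tested as a difference of changes, whose 2 parts share no array. It was below 0 and passed for 5 of the 10 members, where 4.12% of all genes were called in that direction and 4.20% above 0. Tlr7 had -4.87 ± 0.49 (adjusted p = 0.00043), Tlr9 -3.37 ± 0.24 (adjusted p = 6.98e-05) and Cd180 -3.00 ± 0.24 (adjusted p = 0.000116). Tlr4 (-1.93 ± 0.26, adjusted p = 0.0017) and Ly86 (-1.38 ± 0.30, adjusted p = 0.0219) passed as well, Ly86 in 9 of 15 alternatives. For each of these 5 both arrays of LMP1 were below both of YFP control and both arrays of CD40-activated were above both of naive control. Arrays did not overlap, in either direction, for 61.2% of all genes in the LMP1 comparison and 59.6% in the CD40 comparison. The 5 were picked by a test on the same arrays, so the lack of overlap adds no support. The controls differ between the responses, since YFP control was cultured and naive control was not. The difference of changes also equals LMP1 minus CD40-activated, less YFP control minus naive control. Those 2 differences were -1.59 and 3.27 for Tlr7, -2.12 and 1.25 for Tlr9 and -2.09 and 0.91 for Cd180. Tlr4 had -1.51 and 0.42, and Ly86 -0.10 and 1.27. Tlr3 (-1.29, adjusted p = 0.082), Unc93b1 (-1.16, adjusted p = 0.188), Tlr1 (-0.65), Tlr6 (-0.40) and Tlr2 (0.11) did not pass. Tlr3 passed with array weights (adjusted p = 0.0463) and without YFP control 1 (adjusted p = 0.00516), and Unc93b1 (adjusted p = 0.00201) and Tlr1 (adjusted p = 0.0474) passed without YFP control 2.

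Of 58 other genes of the Toll-like receptor pathway, listed by role, 51 were measured and 7 were not analysed here. With LMP1 10 of the 51 rose and 11 fell (median -0.09), where 14.9% of all genes rose and 8.31% fell. With CD40 activation 11 rose and 4 fell (median 0.19), where 11.0% of all genes rose and 6.65% fell. Between LMP1 and CD40-activated cells 8 were higher in LMP1 cells and 15 lower (median -0.17). Of all genes 9.66% were higher there and 5.17% lower. The same shares of all genes apply to each list below. The genes did not move in 1 direction, and their roles are taken in turn.

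The trafficking and processing genes of the endosomal receptors, which bring TLR7 and TLR9 to endosomes, cleave them there or remove their ligands, fell for 4 of 11 members with LMP1 and rose for 1. Pld4, an endosomal exonuclease that degrades nucleic acid ligands, was at 7.95 and 7.85 in LMP1 cells and at 10.38 and 10.19 in YFP control (-2.39, adjusted p = 2.32e-05). Naive cells, at 10.10 and 9.84, and CD40-activated cells, at 10.47 and 10.27, were near the YFP control level of Pld4, so LMP1 cells stood apart. The protease Lgmn fell by 1.34 and the endolysosomal transporter Slc15a4, needed for TLR7 and TLR9 signalling, by 1.21. Ctsb, a cathepsin, was at 0.03. With CD40 activation 3 of 11 rose, namely Pld3 (1.10), Lgmn (1.00) and the chaperone Hsp90b1 (0.59), and 0 fell, while the chaperone Cnpy3 was at 0.03. Between LMP1 and CD40-activated cells 7 of the 11 were lower in LMP1 cells, led by Pld4 (-2.47), the cathepsin Ctss (-1.78) and Slc15a4 (-1.42), and 1 was higher, where 5.17% of all genes were lower. Ctss was lower on all arrays of LMP1 and YFP control than on all others and was also lower in YFP control than in naive cells (-1.10). With CD40 activation Ctss was at 0.62 without passing (adjusted p = 0.0982 in limma's test). Hsp90b1 showed the same split of the arrays. For both genes strain, sex, TAT-Cre, sort and the set of arrays go along with this split and cannot be told apart.

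**Figure D3:**
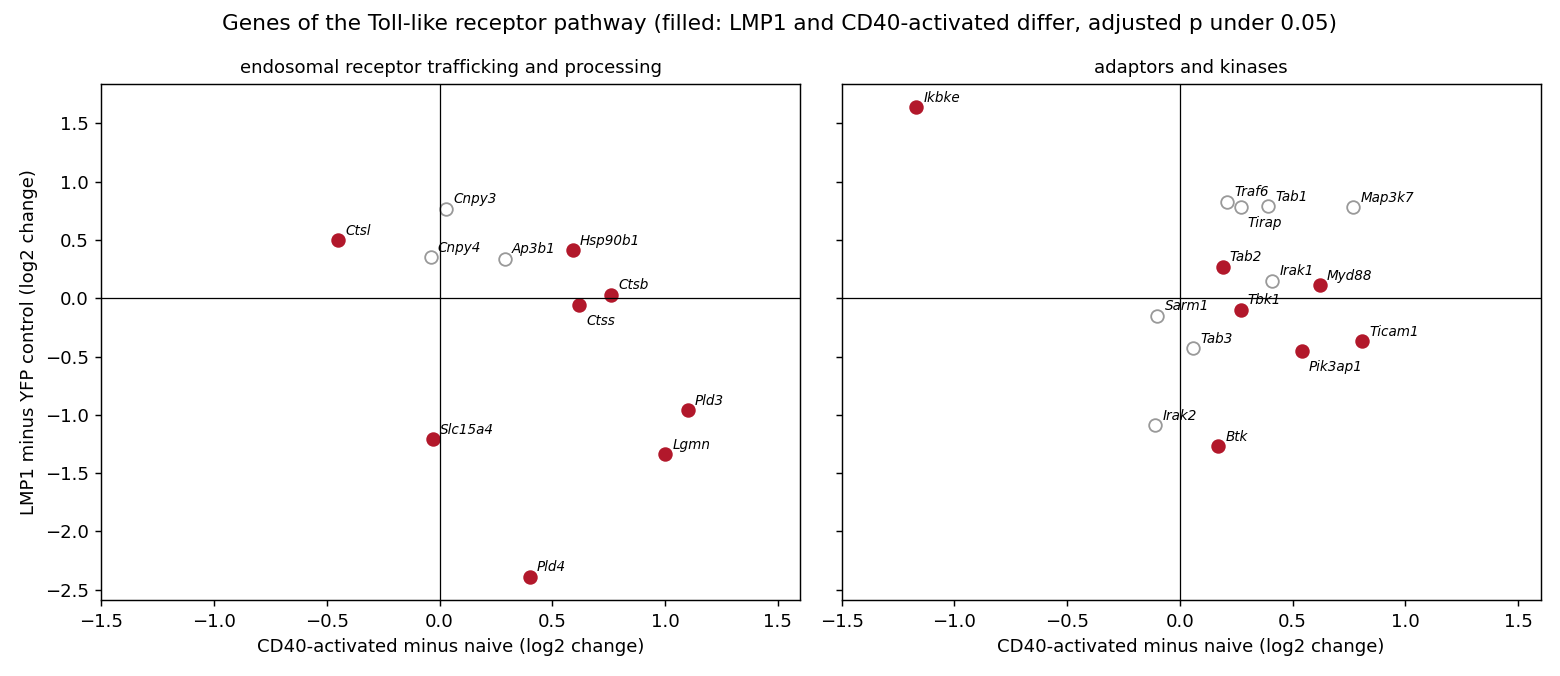
Log2 change with CD40 activation (horizontal axis) and with LMP1 (vertical axis) of 11 trafficking and processing genes on the left and 15 adaptors and kinases on the right, 2 arrays per group. Filled red symbols differed between LMP1 and CD40-activated cells at an adjusted p under 0.05. Pld4 lies lowest on the left at -2.39, and Ikbke on the right rose by 1.64 with LMP1 and fell by 1.17 with CD40 activation.

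Adaptors and kinases rose for 5 of 15 members and fell for 2 with LMP1. Ikbke, a kinase upstream of interferon regulatory factors, was at 8.38 and 8.37 in LMP1 cells and at 6.94 and 6.54 in YFP control (1.64, adjusted p = 0.000197). With CD40 activation Ikbke fell by 1.17, from 8.20 and 8.34 in naive to 7.01 and 7.19 in activated cells, and it was lower in YFP control than in naive cells (log2 difference -1.53). LMP1 and naive cells thus lay close for Ikbke, and both cultured groups without LMP1 lay lower. Btk, the kinase of B cell receptor signalling that also serves Toll-like receptors, fell by 1.27 with LMP1, and Irak2 fell by 1.09, while Tbk1 was at -0.10. With CD40 activation 3 of 15 rose and 1 fell, with Ticam1, the adaptor of TLR3 and TLR4, at 0.81, Map3k7 at 0.77 and Tab3 at 0.06. Between LMP1 and CD40-activated cells 3 were higher and 4 lower, among them Ikbke (1.28), Btk (-1.25) and Tab2 (1.01), with Tab3 at 0.07. Tab2 was above all other arrays on those of LMP1 and YFP control and differed between YFP control and naive cells by 0.94. Myd88, the adaptor of nearly all Toll-like receptors, showed the same split of the arrays and differed by 1.28 between YFP control and naive cells. This split was found for 6.01% of all genes. For Tab2 and Myd88 strain, sex, TAT-Cre, sort and the set of arrays go along with it and cannot be told apart.

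Among transcription factors 3 of 5 fell with LMP1. Irf7, which induces type I interferon after TLR7 and TLR9 signalling, was at 5.57 and 5.73 in LMP1 cells and at 7.87 and 7.14 in YFP control (-1.86, adjusted p = 0.000479). It also fell with CD40 activation, from 7.48 and 7.54 to 5.67 and 5.28 (-2.03, adjusted p = 0.000511). Irf7 was thus low in both activated groups, unlike Tlr7 and Tlr9, and its difference of changes was 0.18 (adjusted p = 0.825). Irf8 fell by 0.83 with LMP1 and rose by 0.62 with CD40 activation, with a difference of changes of -1.45 (adjusted p = 0.0041), and Rel fell by 0.53 with LMP1. Rela was at -0.13 with LMP1 and Irf3 at 0.03 with CD40 activation, neither passing. Between LMP1 and CD40-activated cells 0 of the 5 passed in limma's test, and 1 had an unadjusted p under 0.05.

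Negative regulators rose for 3 of 9 members and fell for 1 with LMP1. Tnfaip3, the ubiquitin-editing enzyme A20, was at 10.69 and 10.62 in LMP1 cells and at 7.63 and 7.90 in YFP control (2.89, adjusted p = 8.21e-06). Nfkbia, the inhibitor of NF-kB, rose by 1.94 and Socs1 by 1.11, while the deubiquitinase Cyld was at -0.09. With CD40 activation Tnfaip3 rose by 0.78, Sigirr, an inhibitory receptor of the family, fell by 1.17, and Rnf216 was at -0.03. Tnfaip3 (1.54), Socs1 (1.44) and Nfkbia (0.70) were higher in LMP1 than in CD40-activated cells, 3 of 9 with 1 lower, and Irak3 was at -0.03.

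Accessory and ligand delivery proteins passed limma's test for 0 of 6 members with LMP1, with 1 at an unadjusted p under 0.05 and Hmgb1 at -0.10. With CD40 activation 3 of 6 rose and 1 fell. Grn, whose product delivers CpG DNA to TLR9, rose by 3.53 from 8.36 and 8.14 to 11.87 and 11.69 (adjusted p = 1.58e-05). Grn was at 10.40 and 10.41 in LMP1 cells and at 10.37 and 10.10 in YFP control, so the cultured groups without the antibody lay between. Ly96, which encodes the lipopolysaccharide-binding partner of TLR4, rose by 3.23 ± 0.59 with CD40 activation, from 6.50 and 6.59 to 10.36 and 9.19. It was uneven in YFP control, at 8.55 and 10.76, and at 8.78 and 8.84 in LMP1 cells. Cd36 rose by 2.02, and Hmgb1 was at 0.14. Cd36 (-1.52), Grn (-1.38) and Hmgb1 (-1.32) were lower in LMP1 than in CD40-activated cells, and Lbp was at 0.05. Hmgb1 was lower on all arrays of LMP1 and YFP control than on all others. Strain, sex, TAT-Cre, sort and the set of arrays go along with this split and cannot be told apart.

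The other 5 Toll-like receptors measured had values of 3.27 to 6.71. Tlr12 was at 6.71 and 6.54 in LMP1 cells against 5.89 and 5.32 in YFP control and rose by 1.02 (adjusted p = 0.00611). Tlr12 was higher in LMP1 than in CD40-activated cells by 1.26 (adjusted p = 0.00318). Tlr8, which neighbours Tlr7 with no protein-coding gene between them, fell by 0.66 with LMP1 (adjusted p = 0.0164), at 3.44 and 3.27 against 3.94 and 4.09, all far below the array medians of 5.52 to 5.68. Tlr8 was at -0.41 with CD40 activation without passing, where Tlr7 rose. Tlr5 (-0.05), Tlr11 (-0.54) and Tlr13 (-0.36) did not pass with LMP1, and with CD40 activation 0 of the 5 passed in limma's test and 2 had an unadjusted p under 0.05, with Tlr5 at -0.63, Tlr12 at -0.26, Tlr11 at 0.23 and Tlr13 at -0.08.

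The members with the widest range of group means were Tlr7, Tlr9 and Cd180. Likeness was measured as the Euclidean distance between genes over the 8 arrays after each gene's mean was subtracted, and it describes these 4 groups only. Nearest to Tlr9 were Ms4a4c, a membrane protein gene (distance 0.26, Pearson r = 0.996), Kmo, an enzyme of tryptophan breakdown (0.69, r = 0.966), and Elk3, an ETS family factor (0.78, r = 0.960). Ms4a4c was at 7.58 in LMP1, 9.82 in YFP control, 9.84 in CD40-activated and 8.66 in naive cells, the same order as Tlr9 with the upper groups nearly equal. Nearest to Cd180 were the adaptor Skap2 (0.60, r = 0.979), the ATP-gated channel gene P2rx4 (0.71, r = 0.952) and Wdr81 (0.71, r = 0.955). Nearest to Tlr7, at larger distances, were Mir297a-4 (1.05, r = 0.987), 5430427O19Rik (1.29, r = 0.954) and Nrgn (1.33, r = 0.957). These correlations are over 8 arrays that share 4 group means and carry no test.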

How the data were processed

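Expression was measured on 8 arrays of mouse spleen B cells, 2 in each of 4 groups taken from the sample titles. The authors deposited log2 values per probe set, made by RMA (background correction, quantile normalization, summary) in oligo. The submitters' processing notes name these tools without versions. Because all arrays were normalized together, a level is relative to the whole set of arrays. The LMP1 and YFP control arrays are labelled re-analysed from an earlier series. The table held 25349 probe sets, of which 22225 named 1 gene in the platform's table, 616 several and 2508 none. Only those naming 1 gene were used, and the brightest probe set stood for each of 640 genes with several, which left 21515 genes. Group means of all 8 arrays were fitted with limma 3.58.1 in R 4.3.3 (lmFit, eBayes), with 4 residual and 5.75 prior degrees of freedom. Two-sided p-values were adjusted over all genes (Benjamini-Hochberg). The number of arrays limits the precision. The p-values rest on the spread between the 2 labelled biological replicates, pooled over the 4 groups and moderated by the spread of all genes.

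Members and lists were chosen with earlier results of these data known. All members are named. Of each pathway list and comparison the text may name the 3 members with the largest changes past the threshold, the 1 with the smallest, and every Toll-like receptor, and 3 nearest genes for each of 3 members. Other values follow a named gene into other groups. Alternatives were another variance model, array weights, only the groups compared, dim genes left out (below the 25th percentile), averaged probe sets, median centring, quantile normalization within each set, a replicate block and leaving out each array. The procedure was tested on simulated data for LMP1 against YFP control. It called 0 of 67 simulated log2 changes of 0.5, 24 of 67 of 1 and 57 of 66 of 2. Of 21315 unchanged genes 5 were called. A change near 0.5 that did not pass is thus not shown to be absent. Gene models and promoters came from RefSeq tables of GRCm38.p6. The build behind the array annotation is not given in the sources used here, and the promoter coordinates printed are those of the RefSeq table.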

Additional observations from a re-analysis of the deposited data

Results flagged for a closer look

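For 5 members the change with LMP1 and the change with CD40 activation differed in limma's test of the difference itself, with adjusted p between 6.98e-05 and 0.0219. The difference of changes was -4.87 for Tlr7, -3.37 for Tlr9, -3.00 for Cd180, -1.93 for Tlr4 and -1.38 for Ly86. The responses were measured in different sets of arrays, in mice of different strain and sex and against controls of different culture. The part of these in the differences was not tested. Each difference of changes includes the gap between the controls. YFP control minus naive control was 3.27 for Tlr7, 1.25 for Tlr9, 0.91 for Cd180, 0.42 for Tlr4 and 1.27 for Ly86. Tlr7, Tlr9, Cd180 and Tlr4 passed in 15 of 15 alternatives and Ly86 in 9.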

How the results depend on the processing

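Of 790 changes of single members under alternative settings, 721 kept their direction and their side of the threshold, 54 were no longer called, 11 were newly called, 3 changes without a call moved past 0 and 1 reversed with a call. The reversed one was Unc93b1 between YFP control and naive control, at 0.62 without YFP control 2 and -0.71 without YFP control 1 against -0.04. The count of members called ranged, with each array left out in turn, from 5 to 7 with LMP1, from 3 to 7 with CD40 activation, from 3 to 6 between LMP1 and CD40-activated, from 5 to 7 between the controls and from 4 to 7 for the difference of changes. Under the other settings these counts were 6 to 7, 4 to 5, 5 to 6, 4 to 6 and 5 to 6. A lone array was assumed to vary like the other groups.

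Counts over all genes moved more. With each array left out they ranged from 2647 to 7090 with LMP1 (4995 in the main setting), 1576 to 5631 with CD40 activation (3803), 1275 to 4735 between LMP1 and CD40-activated (3191), 2695 to 5955 between the controls (3986) and 707 to 4199 for the difference of changes (1790). With array weights or only the groups compared, they were 6751 and 6360 between LMP1 and CD40-activated and 2020 and 1537 between the controls. Subtracting array medians moved the median of all genes with CD40 activation from -0.05 to 0.06.

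The titles number the replicates, but nothing ties equal numbers together, and deviations of same-numbered arrays correlated between -0.102 and 0.074. With the replicate number as a block 6 members were called with LMP1, 4 with CD40 activation, 6 between LMP1 and CD40-activated, 6 between the controls and 5 for the difference of changes. Array number limits all of these values.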
